A study of Mus musculus with 278 samples.

Results

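DNA replication begins when the ORC, Cdc6 and Cdt1 proteins load the ring of MCM proteins onto DNA in G1 phase, and Cdc45 and the GINS proteins then join the ring to form the active helicase of S phase. Cyclin E with its kinase and the E2F transcription factors govern the passage from G1 into S phase, and many replication genes are known E2F targets. In the epidermis, replication is a property of basal keratinocytes, which divide and replace the cells lost from the surface. The 47 genes described here encode these replication proteins, the enzymes that supply nucleotides and histones, the cyclins E and 3 E2F factors. They were chosen by name as the DNA replication and G1/S genes. Of the 47, 44 had a row in the expression table of 14145 genes and 3 did not: Orc6, Tyms and Uhrf1. All 44 passed the filter on low values (TPM over 1 in more than 5 cells), as did 12355 genes in all. TPM gives a transcript level per gene length, and the values of a cell add up to a fixed total.

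The study asked how cultured keratinocytes from adult mouse dorsal skin respond to neighbours with active beta-catenin. WT cells were grown with K14ΔNβ-cateninER cells, a transgenic line in which the keratin 14 promoter drives a stable beta-catenin that 4-hydroxy-tamoxifen (4OHT) switches on, in a ratio of 9 to 1. Treated co-cultures received 200 nM 4OHT for 24 h and untreated co-cultures received DMSO, and single cells of both were captured on a microfluidic chip and sequenced. The co-cultures of all groups held transgenic cells. The paper found such cells by their transgene reads and left them out, but no label marks them, and they were not told apart here. The library names formed 2 series, AG and GHA501A, and the 4 sets held 66 AG untreated, 64 AG treated, 71 GHA501A untreated and 69 GHA501A treated cells, 270 in all. The sets were the replicates, and no label says that they came from separate cultures. The p-values thus rest on the spread between these sets, which may be technical. With 4 sets, the fit (limma) pooled much of that spread over all genes, so an SE is not the spread of its gene alone.

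The cells of the series differed in their markers before any replication gene was considered. Krt14, the basal keratin, exceeded 100 TPM in 66 of 66 AG untreated, 63 of 64 AG treated, 10 of 71 GHA501A untreated and 20 of 69 GHA501A treated cells. Of 10 keratinocyte markers listed, 9 were in the table. Their summed TPM per cell had a median of 9702 and 9938 in the AG untreated and treated sets and of 10.9 and 45.9 in the GHA501A sets, and Itgb4 was listed at 0 in every AG cell. Of 10 fibroblast markers, 6 were in the table, and their summed TPM had medians of 54.4 and 94.5 in the AG sets and of 3394 and 2967 in the GHA501A sets, with Col1a1 over 1 TPM in 100% of GHA501A cells. Most GHA501A cells thus went against the label keratinocyte, and every comparison between the series below is a comparison of sets that also differ in these markers, so that series, cell make-up and library preparation cannot be told apart. The median number of genes over 1 TPM per cell was 6191, 6381, 6392 and 6008 in the 4 sets.

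Promoters show what many of these genes share beyond their names. The promoter set used here lists a start site in GRCm38.p6 for 35 of the 44 members. The windows searched ran from 250 bases before to 50 bases after each start. The other members are annotated genes that this set does not cover. An E2F motif, taken as the letters TTCCCGC with the allowed variant TTCGCGC, the allowed variant TTGCCGC and the allowed variant TTGGCGC, on either strand, was found for 23 of the 35 members (65.7%) and for 18.6% of 9651 tested genes with a window. Genes with several windows were counted once, and with the first window only the shares were 60% and 16.6%. The CCAAT motif, on either strand, was found for 23 of 35 members (65.7%) and for 42.9% of the tested genes. Below are the 250 bases before the start for Mcm6, Rpa2 and Chaf1b, the 3 members with a match in this stretch whose levels followed the other members most closely between cells, and for Rpa1, a member that was near 0 in AG. Capitals mark E2F motif letters.
Mcm6, chr1:128359706-128359955, minus strand: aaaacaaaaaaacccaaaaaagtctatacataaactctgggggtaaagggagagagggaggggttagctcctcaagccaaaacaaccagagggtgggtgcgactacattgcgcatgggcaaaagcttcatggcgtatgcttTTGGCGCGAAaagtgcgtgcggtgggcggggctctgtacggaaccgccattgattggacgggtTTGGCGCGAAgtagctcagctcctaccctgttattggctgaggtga
Rpa2, chr4:132768110-132768359, plus strand: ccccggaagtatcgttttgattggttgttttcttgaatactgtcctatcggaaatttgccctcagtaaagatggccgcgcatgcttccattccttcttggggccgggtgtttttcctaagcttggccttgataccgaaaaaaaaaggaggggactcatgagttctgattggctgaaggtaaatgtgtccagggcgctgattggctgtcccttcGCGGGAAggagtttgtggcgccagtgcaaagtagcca
Chaf1b, chr16:93883651-93883900, plus strand: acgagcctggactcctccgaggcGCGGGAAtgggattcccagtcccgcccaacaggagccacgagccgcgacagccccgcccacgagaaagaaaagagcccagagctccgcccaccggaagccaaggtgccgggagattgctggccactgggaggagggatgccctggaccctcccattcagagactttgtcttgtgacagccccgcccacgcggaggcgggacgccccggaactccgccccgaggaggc
Rpa1, chr11:75348384-75348633, minus strand: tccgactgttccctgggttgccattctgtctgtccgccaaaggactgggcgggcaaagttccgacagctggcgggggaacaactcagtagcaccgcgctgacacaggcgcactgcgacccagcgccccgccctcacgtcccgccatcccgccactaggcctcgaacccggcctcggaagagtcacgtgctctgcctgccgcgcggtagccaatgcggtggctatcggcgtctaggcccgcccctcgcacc

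The Mcm6 stretch holds 4 matches, in 2 overlapping pairs, the nearer of which begins 46 bases before the start. Rpa2 has its match 37 bases and Chaf1b 227 bases before the start, and the Rpa1 stretch holds none. Mcm3, the member that followed the others most closely, has 3 matches in its window, all of them after the start. A match is a run of letters and not evidence that a factor binds there.

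Of the 44 members, 19 were over 1 TPM in over 50% of the cells of every set, among them the MCM ring subunits Mcm4, Mcm5 and Mcm7. Mcm4 had mean TPM of 209.4, 184.2, 222.1 and 207.7 in the AG untreated, AG treated, GHA501A untreated and GHA501A treated sets, and Mcm7 had 55.82, 55.03, 61.99 and 55.76. For both, the sets of the 2 series overlapped, and between 76.6% and 94.2% of the cells of a set were over 1 TPM. Mcm3 had means of 47.46, 36.21, 69.99 and 94.34, with standard deviations over cells of 87.03, 68.40, 90.75 and 186.4 that exceeded the means.

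The Mcm3 row shows how the other ring genes differed between the series. Its share of cells over 1 TPM was 54.5% and 42.2% in AG and 81.7% and 82.6% in GHA501A, and the median cell had 1.81, 0, 41.94 and 53.05 TPM. Mcm2 was over 1 TPM in 33.3% and 40.6% of the AG cells and in 80.3% and 88.4% of the GHA501A cells. Mcm6 had mean TPM of 33.3 and 32.9 in AG and 74.6 and 87.7 in GHA501A, a difference of 1.26 on the log2(mean TPM + 1) scale (SE 0.33, n = 4 sets, limma, adjusted p = 0.0512) that missed the threshold. Mcm5 had 27.21 and 34.01 in AG and 38.63 and 75.96 in GHA501A. For these 4 of the 6 ring genes both GHA501A sets lay above both AG sets, as they did for 36.7% of all genes, and Mcm4 and Mcm7 overlapped.

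The loading factors were lower and seen in fewer cells. Cdc6, the ATPase that loads the ring, had mean TPM of 0.139 and 0.0879 in the AG sets and of 16.4 and 9.87 in the GHA501A sets. No AG cell exceeded 2.31 TPM of Cdc6, while 46.5% and 39.1% of the GHA501A cells were over 1 TPM. Cdt1, its partner in loading, had 12.3, 9.75, 27.3 and 26.1. Orc1, a subunit of the origin recognition complex, had 6.44, 7.41, 30.3 and 6.95, so that the GHA501A untreated set alone stood out. Mcm10, which helps to switch the loaded ring on, had 14.9, 5.32, 16.8 and 7.87 and was lower in the treated set of each series.

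**Figure D1:**
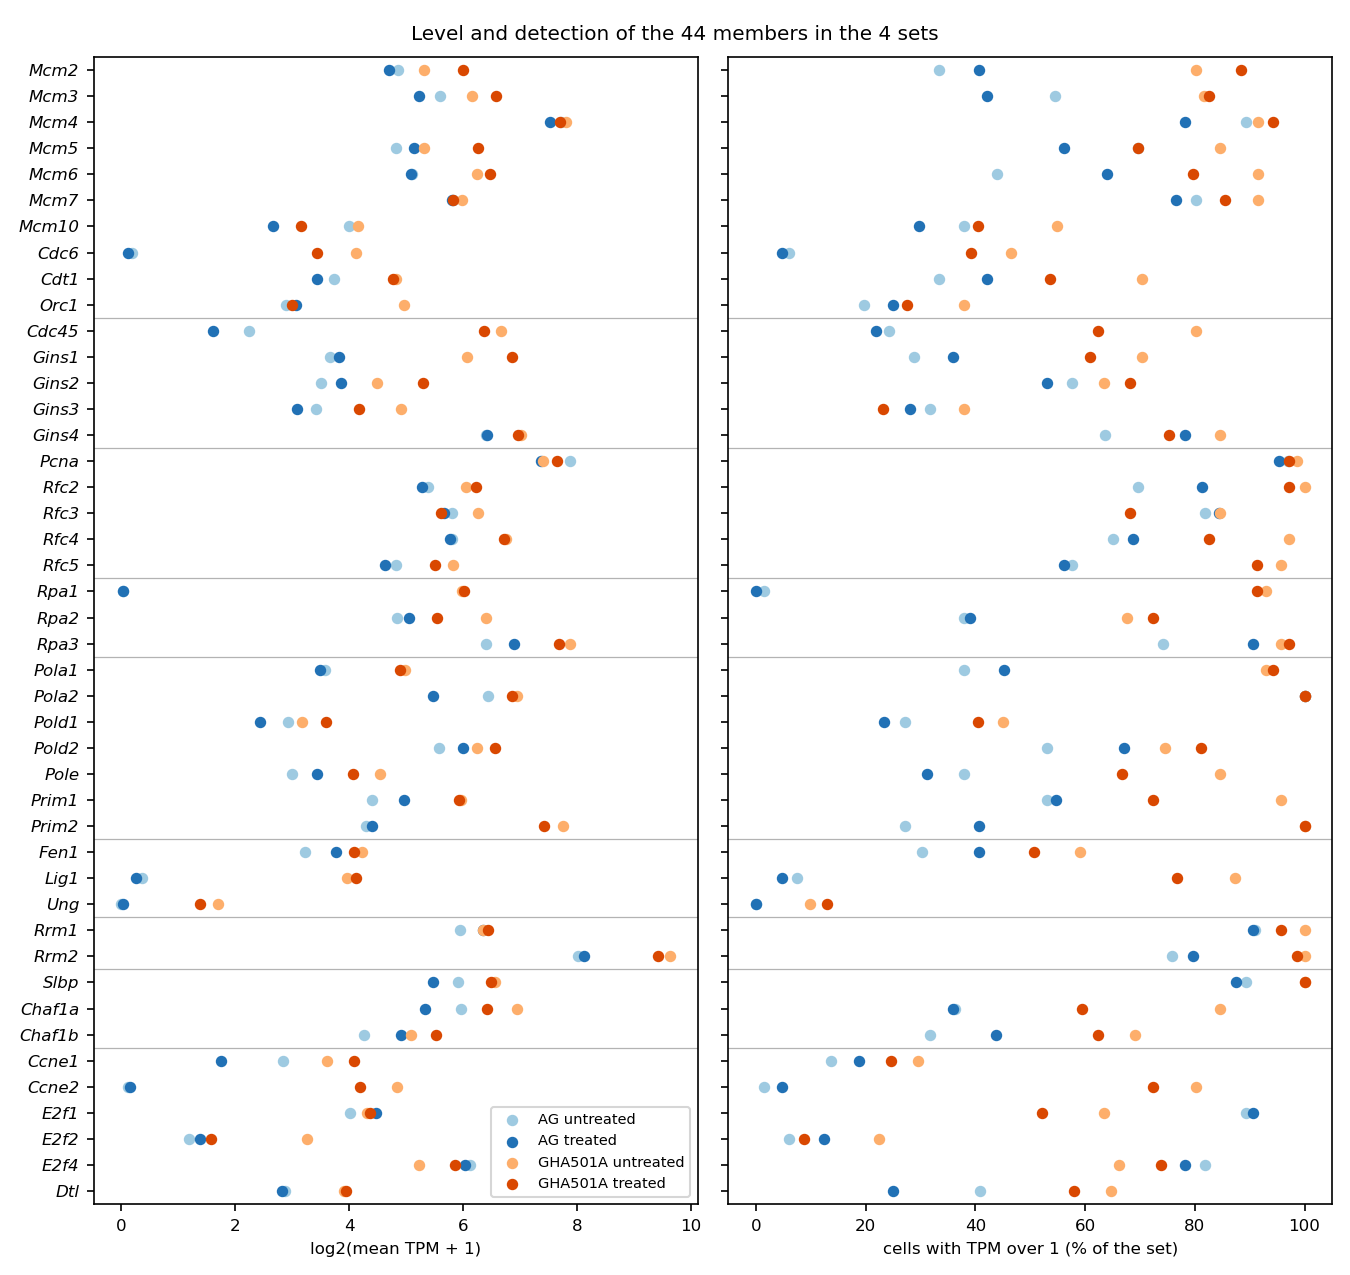
Each row is a member gene, grouped by role between the grey lines, and each dot is a set of cells. The left panel gives log2(mean TPM + 1) and the right panel the percent of cells over 1 TPM. Orange GHA501A dots lie to the right of the blue AG dots in most rows. In the left panel the gap is widest for Rpa1, Cdc45, Ccne2 and Lig1. There the Pcna and Mcm7 dots of the series overlap and both AG dots of E2f4 lie to the right.

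Of the genes that complete the helicase, Cdc45 differed most between the series. Its mean TPM was 3.71 and 2.04 in the AG sets and 99.98 and 81.95 in the GHA501A sets, and 24.2% and 21.9% of the AG cells were over 1 TPM, against 80.3% and 62.3% of the GHA501A cells. Among the GINS genes, Gins1 had 11.7, 13.1, 65.92 and 114.5 TPM, Gins2 had 10.4, 13.5, 21.5 and 38.5, Gins3 had 9.70, 7.50, 29.2 and 17.0, and Gins4 had 83.79, 84.45, 128.8 and 124.3. These proteins form 1 complex in a fixed ratio, but their transcripts were not at 1 level: Gins4 was above the other GINS genes in every set.

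The clamp Pcna, which holds the polymerases on DNA, was over 1 TPM in 95.3% to 98.6% of the cells of every set, with means of 232.6, 164.5, 168.1 and 199.4 TPM, and its series overlapped. The clamp loader genes Rfc2, Rfc4 and Rfc5 were higher in both GHA501A sets than in both AG sets, whereas Rfc3 overlapped, with 54.88 and 49.72 TPM in AG and 75.9955 and 47.84 in GHA501A. Pola2, a subunit of polymerase alpha, was the single member over 1 TPM in 100% of the cells of every set. The catalytic subunit Pola1 was over 1 TPM in 37.9% and 45.3% of AG cells and in 92.96% and 94.20% of GHA501A cells, at 10.9, 10.3, 30.5 and 28.6 TPM. Of the primase subunits, which make the RNA primers, Prim2 had 18.7 and 20.2 TPM in AG and 214.6 and 170 in GHA501A, where 100% of the cells were over 1 TPM, and Prim1 had 20.1, 30.3, 61.6 and 59.5. Pold1, Pold2 and Pole, subunits of the polymerases delta and epsilon, were at 4.408 to 11.03, 47.01 to 92.86 and 6.95 to 22.4 TPM over the sets, with both GHA501A sets above both AG sets for each.

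Rrm2, the inducible subunit of the enzyme that makes deoxyribonucleotides, was the member with the highest mean in every set. Its mean TPM was 258 ± 642 (SD over 66 cells), 277 ± 568 (64 cells), 793 ± 753 (71 cells) and 687 ± 730 (69 cells). The median cell had 44.7 and 76.5 TPM in the AG sets and 657 and 484 in the GHA501A sets. Rrm1, the partner subunit, was at 60.5, 80.4, 80.3 and 85.8 TPM, in 90.6% to 100% of cells, and its sets overlapped between the series. Slbp, which binds the stem-loop of histone messages, was over 1 TPM in 89.4% and 87.5% of AG cells and in 100% of GHA501A cells. The chromatin assembly genes Chaf1a and Chaf1b were over 1 TPM in 31.8% to 43.8% of AG cells and 59.4% to 84.5% of GHA501A cells.

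Of the 6 G1/S regulators, 5 had a higher fitted level in GHA501A, against 50.6% of all genes, with a median log2 difference of 1.11. By the rule given below 1 of them (16.7%), Ccne2, was called higher, a share near the 18.2% of all genes. Ccne2 was near 0 in AG, over 1 TPM in 3.08% of the cells. E2f1, an activating E2F factor, had similar means in all sets (15.15, 21.06, 18.97 and 19.67 TPM) but was over 1 TPM in more AG cells (89.4% and 90.6%) than GHA501A cells (63.4% and 52.2%). E2f4, a factor best known for repression in resting cells, had 68.8 and 64.6 TPM in AG and 36.5 and 56.8 in GHA501A, the lowest log2 difference of the members at -0.54, which was 0.060 when only cells with Krt14 over 100 TPM were used. E2f2 was seen in 6.06%, 12.5%, 22.5% and 8.70% of cells. Ccne1, cyclin E1, was at 6.152, 2.352, 11.15 and 15.99 TPM, and Dtl, which directs the destruction of Cdt1, at 6.35, 6.03, 14.1 and 14.5 TPM.

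No member was at 0 in every cell of a series, but several were close to it in AG. Over the whole series, 6 members (Cdc6, Rpa1, Lig1, Ung, Ccne2 and E2f2) were over 1 TPM in under 10% of the 130 AG cells, a share of 13.6% against 30.3% of all 14145 genes. No member was that rare among the 140 GHA501A cells, where 27.8% of all genes were. Rpa1, the large subunit of the protein that coats single-stranded DNA, was at 0 in 65 of 66 AG untreated and 62 of 64 AG treated cells, with a highest AG value of 1.17 TPM, and had mean TPM of 62.3 and 63.8 in the GHA501A sets. Its partners in the same complex were present in AG: Rpa2 at 27.70 and 31.998 TPM and Rpa3 at 83.67 and 118.6 TPM. Lig1, the ligase that joins the fragments of the lagging strand, had AG means of 0.293 and 0.200 TPM and GHA501A means of 14.7 and 16.3 TPM. The flap nuclease Fen1, whose protein also works on the lagging strand, was at 8.35, 12.6, 17.8 and 15.9 TPM. Ccne2, cyclin E2, had AG means of 0.0848 and 0.105 and GHA501A means of 27.8 and 17.3 TPM. Ung, which removes uracil from DNA, was at 0 in all 66 AG untreated cells and 61 of 64 AG treated cells, and rare in GHA501A also, at 9.86% and 13.04% of cells.

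A row near 0 in AG says only how these libraries list the gene. Rpa1, Lig1 and Ccne2 formed the class under 10% of AG and over 50% of GHA501A cells, 3 of 44 members (6.82%) against 4.35% of all 14145 genes, and the opposite class held 0 members and 1.17% of genes. The class also held genes that every cell uses, such as Eif4a1 (0.769% of AG and 100% of GHA501A cells), Eif5a, Rpl31, Rps24 and Hspa5, which were picked after their values were seen. Of other S-phase genes, Dnmt1 and Timeless were over 1 TPM in 0 of the 130 AG cells and in 84.3% and 72.1% of GHA501A cells, and Dut was over 1 TPM in 3.85% and 95.7%. The summaries over the members and over the gene lists are therefore also given without these genes.

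Between the series, 42 of the 44 members had a higher fitted level in GHA501A, with E2f4 and Pcna as the exceptions, against 50.6% of all genes. The median log2 difference of the members was 1.01, against 0.01 for all 12355 genes tested, and it was 1.00 among untreated and 1.06 among treated sets. Both GHA501A sets lay above both AG sets for 35 members (79.5%), against 36.7% of all genes. The sets of the series overlapped for 8 members, which were Mcm4, Mcm7, Mcm10, Pcna, Orc1, Rfc3, Rrm1 and E2f1. For 1 member, E2f4, both AG sets lay above both GHA501A sets, as they did for 32.9% of all genes.

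Calls required an adjusted p under 0.05 (limma with a term for treatment, Benjamini-Hochberg over all genes) and an absolute log2 difference over 0.5. By this rule 10 members (22.7%) were called higher in GHA501A and 0 higher in AG. The background was 18.2% of all genes called higher in GHA501A and 10.8% called higher in AG. The share of called members was thus close to that background. In simulated data with noise at the pooled spread of the fit, the rule found 0% of 200 genes given a series difference of 1. At a difference of 3 it found 100%, with 68 false calls, a larger share of all calls than the 0.05 aimed at. The share of calls therefore cannot tell whether members near the median of 1.01 differ more often than other genes. The largest difference was that of Rpa1, at 5.97 (SE 0.33, adjusted p = 0.00181, higher in 2 of 2 sets). Cdc45 followed with 4.60 (SE 0.34, adjusted p = 0.00208), then Ccne2 with 4.39, Lig1 with 3.72, Cdc6 with 3.62, Prim2 with 3.23 and Gins1 with 2.72. The smallest called differences were those of Ung (1.52), Rrm2 (1.46, SE 0.33, adjusted p = 0.0355) and Pola1 (1.40, SE 0.33, adjusted p = 0.0372). For the members near 0 in AG the size of the difference depends on the pseudocount of 1. Rpa1, Ccne2 and Ung were over 1 TPM in 1, 4 and 0 AG cells. They passed the filter only through GHA501A, where they were called higher, so these calls are not independent of the filter.

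The direction was more even than the calls. Without Rpa1, Lig1 and Ccne2 the median log2 difference was 0.95 and 7 of 41 members (17.1%) were called. Without all 616 genes of the class near 0 in AG, 13.9% of genes were called higher in GHA501A. The 7 members still held Cdc6 and Ung, which were over 1 TPM in 5.38% and 0% of AG cells. Limited to cells with Krt14 over 100 TPM, which left 10 and 20 GHA501A cells, the median was 1.01 (all genes -0.11). There 41 of 44 members were higher in GHA501A and 7 (15.9%) were called, against 9.56% of all genes. These cells were not matched in markers, since every GHA501A cell had Col1a1 of at least 5.18 TPM and the AG sets had medians of 0. When the mean of log2(TPM + 1) over cells replaced the log2 of the mean, 31 members were called, 29 higher in GHA501A and 2 higher in AG, with 2650 of all genes (21.4%) called higher in GHA501A and 2889 higher in AG (2247 and 1333 with the log2 of the mean). On that scale the difference of E2f1 was -0.76 (limma, adjusted p = 0.0321), the reverse in sign of its 0.11 from the log2 of the mean, and that of E2f4 was -1.09. Leaving out the AG untreated or the AG treated set left 3 called members (6.82%), Rpa1, Cdc45 and Lig1 in both cases, against 6.46% and 7.29% of all genes called higher in GHA501A.

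**Figure D2:**
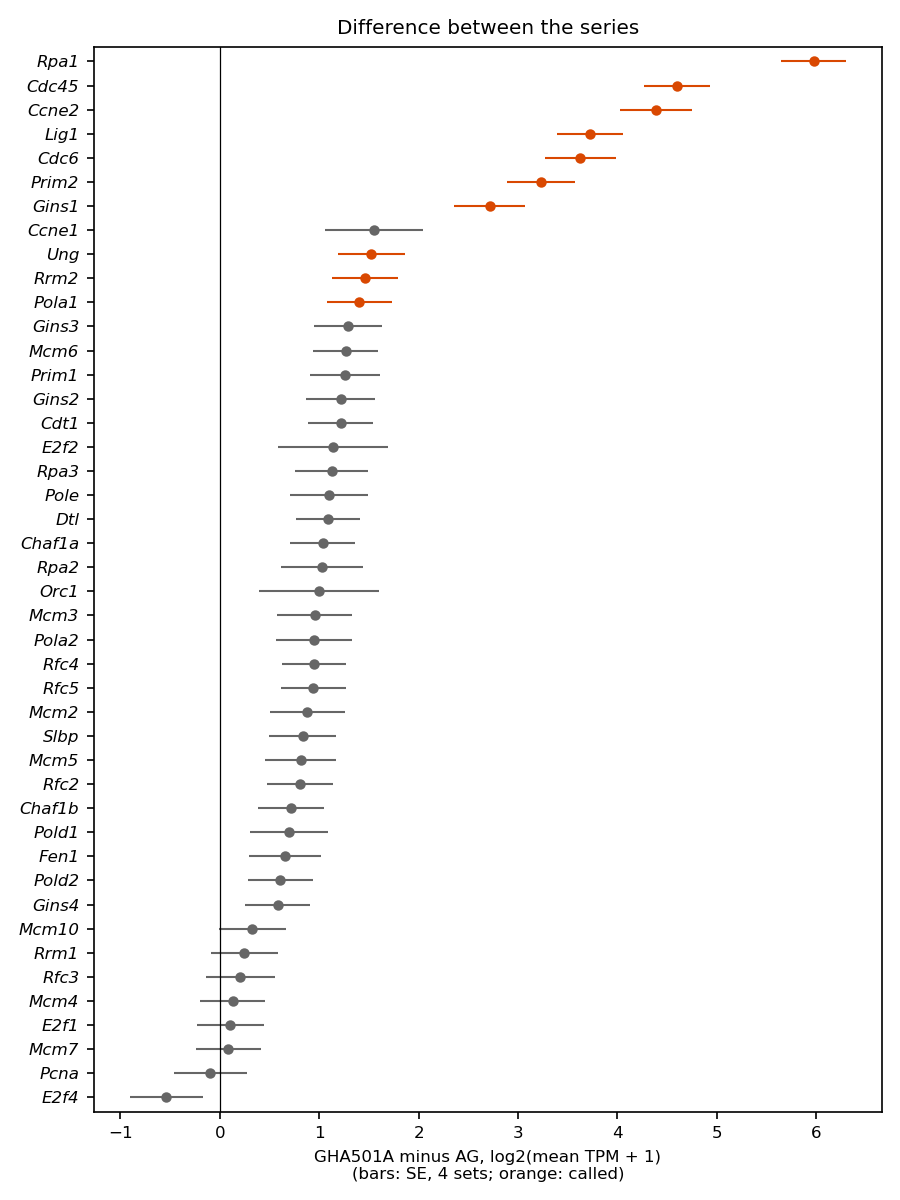
Points give the GHA501A minus AG difference of log2(mean TPM + 1) for each of the 44 members, with bars of 1 SE from the fit over 4 sets, and orange marks the 10 called members. The points lie right of 0 for 42 members, with a gap between the 7 members at 2.72 or more and the rest, and E2f4 lies at the bottom at -0.54.

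The difference between the series was also a difference in how many cells had many members over 1 TPM. Of the 44 members, 40 (90.9%) were over 1 TPM in a higher percent of GHA501A than of AG cells, against 46.5% of all genes tested, and 37 in both the untreated and the treated sets. A cell had a median of 19 members over 1 TPM in AG untreated (range 9 to 38), 18 in AG treated (8 to 40), 34 in GHA501A untreated (15 to 42) and 32 in GHA501A treated (17 to 42). The summed TPM of the members per cell had medians of 1040, 916, 3322 and 2989.

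The AG cells spread into a low and a high range. Of 66 AG untreated cells, 46 had 23 or fewer members over 1 TPM, 4 had 24 to 29 and 16 had 30 or more. The AG treated set held 41, 6 and 17 such cells, the GHA501A untreated set 5, 10 and 56, and the GHA501A treated set 15, 12 and 42. The share of cells with 30 or more members was 24.2% (95% Wilson interval 15.5 to 35.8) and 26.6% (17.3 to 38.5) in AG and 78.9% (68.0 to 86.8) and 60.9% (49.1 to 71.5) in GHA501A. These intervals cover the counting of cells only, and the limits of 23 and 30 were set after the counts were seen.

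**Figure D3:**
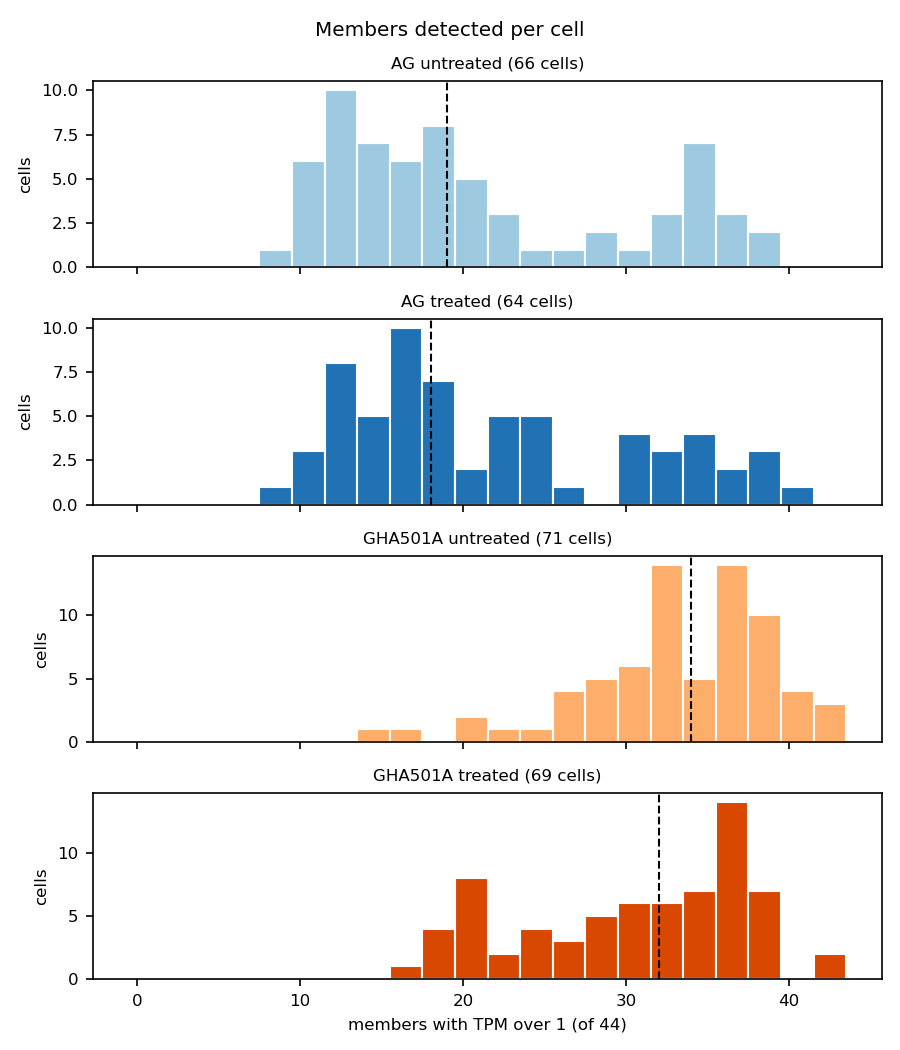
Histograms of the number of members over 1 TPM per cell, 1 panel a set, with a dashed line at the median (19, 18, 34 and 32). The AG panels have most cells under 24 members and a smaller group at 30 or more, and the GHA501A panels have most cells at 30 or more.

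Treatment with 4OHT gave no called member and no called gene. With series as a block, 0 of 44 members and 0 of 12355 genes (0%) passed. An unadjusted p (limma) under 0.05 was found for 459 genes (3.72%) and 1 member, 200 of the genes (1.62%) being higher in treated. In simulated data with noise at the pooled spread of the fit, the rule found 6% of 200 genes given a treatment difference of 1, with 25 false calls. At a difference of 3 it found 100%, also with 25 false calls. Both were a larger share of the calls than the 0.05 aimed at. The absence of calls thus does not exclude treatment differences near 1. The median log2 difference of treated minus untreated was -0.04 for the members, of which 17 were above 0, and -0.00089 for all genes, of which 49.9% were above 0. It was -0.02 within AG and -0.06 within GHA501A. In both series together 8 members were higher and 14 lower in the treated set, 22 of 44 with the same sign (50%), against 47.3% of all genes (23.5% higher and 23.8% lower in both).

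Mcm10 was the member with an unadjusted p under 0.05. Its set means of 14.9 and 5.32 TPM in AG and 16.8 and 7.87 in GHA501A gave a log2 difference of -1.17 (SE 0.33, limma, adjusted p = 0.998), lower in the treated set of both series. The AG untreated mean leans on 1 of 66 cells, at 497.5 TPM. The means of log2(TPM + 1) over cells were closer in AG, at 1.46 untreated and 1.09 treated, and were 2.34 and 1.47 in GHA501A. Other members had smaller or uneven differences of treated minus untreated. These were 0.31 in AG and 0.96 in GHA501A for Mcm5, 0.65 and 0.43 for Chaf1b, 0.34 and 0.81 for Gins2, -0.63 and -0.53 for Chaf1a and -0.33 and -0.75 for Gins3. Orc1 and E2f2 had -1.98 and -1.69 in GHA501A and 0.18 and 0.20 in AG. The E2f2 value in GHA501A leans on 1 cell at 540.6 TPM, since the mean over all GHA501A cells was 5.34 TPM. None of these passed the threshold, and whether the effect differed between the series was not tested, since each series held 1 set per condition.

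Within a set, the levels of most members varied together from cell to cell. The Pearson correlation of log2(TPM + 1) over the cells of a set had a median over pairs of members of 0.34 (903 pairs, 66 cells), 0.36 (946 pairs, 64 cells), 0.22 (71 cells) and 0.26 (69 cells) in the 4 sets, and on average 90.4% of pairs were above 0. The cells of a set share a series, a treatment and the fixed TPM total, and the correlations are given as a description. Mcm3 and Rrm2 were the pair with the highest mean over sets, at 0.61, with 0.68, 0.66, 0.59 and 0.48 in the sets. Mcm3 with Mcm6 (0.60), Mcm5 (0.59) and Mcm2 (0.59) came next.

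Each member was then compared with the mean z-score of the other members. Mcm3 led, with a mean r over the 4 sets of 0.78 ± 0.08 (SD, n = 4 sets), followed by Mcm6 (0.71 ± 0.13), Mcm2 (0.69 ± 0.12), Rpa2 (0.68 ± 0.11) and Chaf1b (0.68 ± 0.12). Neighbours in this order did not differ beyond their spread over sets. Mcm4 was the most even, at 0.64 to 0.68 in every set. The median over members was 0.53, and of 7018 other genes over 1 TPM in at least 20% of the cells of every set, whose median r with the member score was 0.08, 37 (0.527%) were above 0.53.

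By role, the median r with the other members was 0.66 for the loading and MCM genes, 0.53 for the helicase partners, 0.53 for the clamp and clamp loader, 0.48 for the polymerases and primases and 0.16 for the G1/S regulators. In that last role Dtl was at 0.63 and Ccne1 at 0.31, while E2f4 (0.07 ± 0.07), E2f2 (0.13 ± 0.11), E2f1 (0.15 ± 0.13) and Ccne2 (0.16 ± 0.23) were the lowest of all 44. The members near 0 in AG had little to correlate there: Lig1 was at 0.18 and 0.42 in AG and 0.70 and 0.64 in GHA501A, and Rpa1 at -0.05 and 0.09 in AG and 0.43 and 0.45 in GHA501A. Rfc5 went the other way, at 0.67 and 0.73 in AG and 0.12 and 0.50 in GHA501A.

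**Figure D4:**
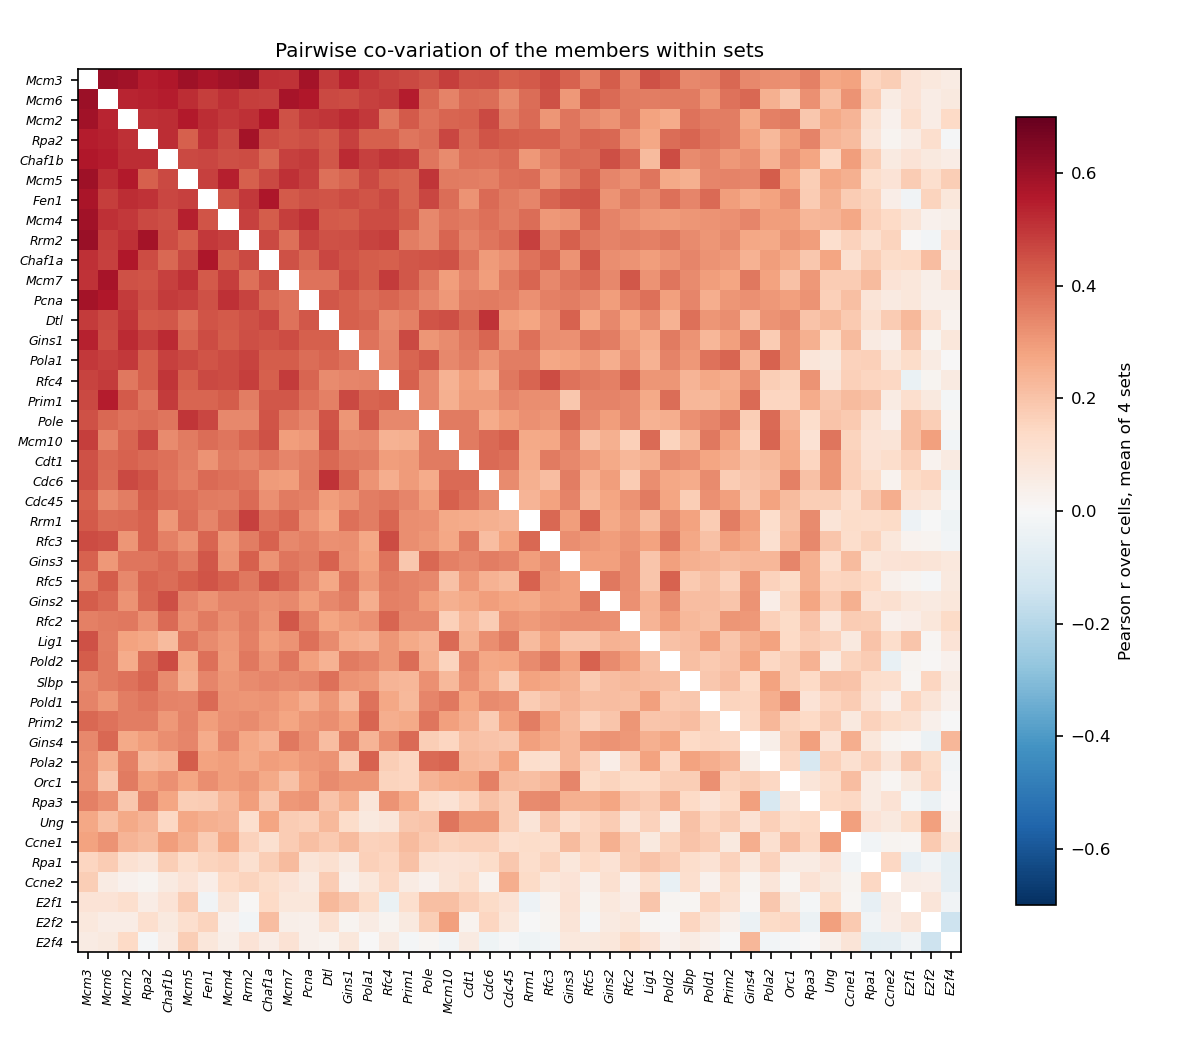
Heat map of the Pearson correlation of log2(TPM + 1) over cells for every pair of the 44 members, averaged over the 4 sets, ordered by each member's correlation with the others. Red fills the upper left, led by Mcm3, Mcm6 and Mcm2, and pales toward Rpa1, Ccne2, E2f1, E2f2 and E2f4 at the lower right, where E2f2 with E2f4 is the lowest pair at -0.14.

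Ordered by their correlation with the other members, 15 of 19 with a window (78.9%) among the 22 highest and 8 of 16 (50%) among the 22 lowest held the E2F motif, a difference that was not tested. The windows listed for Cdc6, Orc1 and E2f1 lie inside the gene as annotated by RefSeq, and without these members the counts were 14 of 18 and 7 of 14. This depends on the annotation: by GENCODE the Orc1 window spans the gene start, and the Mcm7 windows lie inside the gene. Mcm2, Pcna, Mcm10 and Cdc45 were among the highest 22 with no match in their window. Among other S-phase genes 58.3% and among mitotic genes 22.2% had the E2F motif, and 47.2% and 85.2% had the CCAAT motif.

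Outside the list, Tk1, thymidine kinase, had the highest correlation with the member score among the genes given here, with a mean r of 0.72 (0.79, 0.79, 0.63 and 0.66 in the sets). It was followed by the chromatin ATPases Atad2 (0.68) and Hells (0.67), the Pcna partner Pclaf (0.67), Fam111a (0.65), the checkpoint gene Clspn (0.63), Atad5 (0.63), which unloads the clamp, and the repair genes Rad51ap1 (0.63) and Brca1 (0.62). At the other end were Kdm5b, a histone H3 demethylase (-0.41, with -0.32, -0.56, -0.37 and -0.40), Tcp11l2 (-0.37), the myosin Myh9 (-0.30), the metallothionein Mt1 (-0.29) and the antiproliferative gene Btg1 (-0.26).

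The pathway around the members was read from 4 lists. Beside each, the background is the 18.2% of all genes called higher in GHA501A, or 13.9% without the 616 genes in the class near 0 in AG. Of 50 other S-phase genes, 48 were tested and 17 (35.4%) were called higher in GHA501A with 0 called higher in AG, and 13 of 44 (29.5%) without Dut, Dnmt1, Timeless and Brca2, which were in that class. The 4 largest were Dut, which clears dUTP (6.58), the histone chaperone Nasp (5.02), the maintenance methyltransferase Dnmt1 (4.86) and Orc4 (3.89), with adjusted p (limma) of 0.00181, 0.00204, 0.00193 and 0.00262. Of 17 tested cyclin D, RB and E2F genes, 4 were called, all higher in GHA501A: Cdk6 (7.56), Ccnd3 (4.04), Cdk2 (3.87) and Tfdp2 (2.24). Ccnd3 and Cdk2 were also in the class near 0 in AG, and 2 of 15 (13.3%) were called without them. Of 31 mitotic genes, 5 (16.1%) were called higher in GHA501A, led by Kif20a (6.63), Nusap1 (4.37), Ttk (3.37) and Birc5 (3.32), and their median difference was 0.92. Kif20a was in the class near 0 in AG, and 4 of 30 (13.3%) were called without it. Of 9 cell cycle inhibitors, Cdkn1a (3.74) and Cdkn2c (2.13) were called higher and Btg2 lower (-1.71) in GHA501A. With treatment, 0 genes of these lists were called.

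The member score went with the mitotic score in every set but less closely in 1 of them. Over cells, r between the member score and the mean z-score of 31 mitotic genes was 0.61 in AG untreated, 0.57 in AG treated, 0.37 in GHA501A untreated and 0.58 in GHA501A treated. Of single mitotic genes, Top2a and Cdk1 had a mean r of 0.60 with the member score and Mki67 had 0.43. The member score was skewed towards high values in AG (skewness 1.01 and 1.17) and not in GHA501A (-0.35 and -0.12). It also went with the number of genes over 1 TPM per cell, at r of 0.49 to 0.52, and given that number the median pairwise r of the members was 0.24 in place of 0.29. Over the cells of a set it had r of -0.26, -0.04, 0.07 and -0.06 with Krt14 and 0.13, 0.06, -0.14 and -0.13 with Col1a1.

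**Figure D5:**
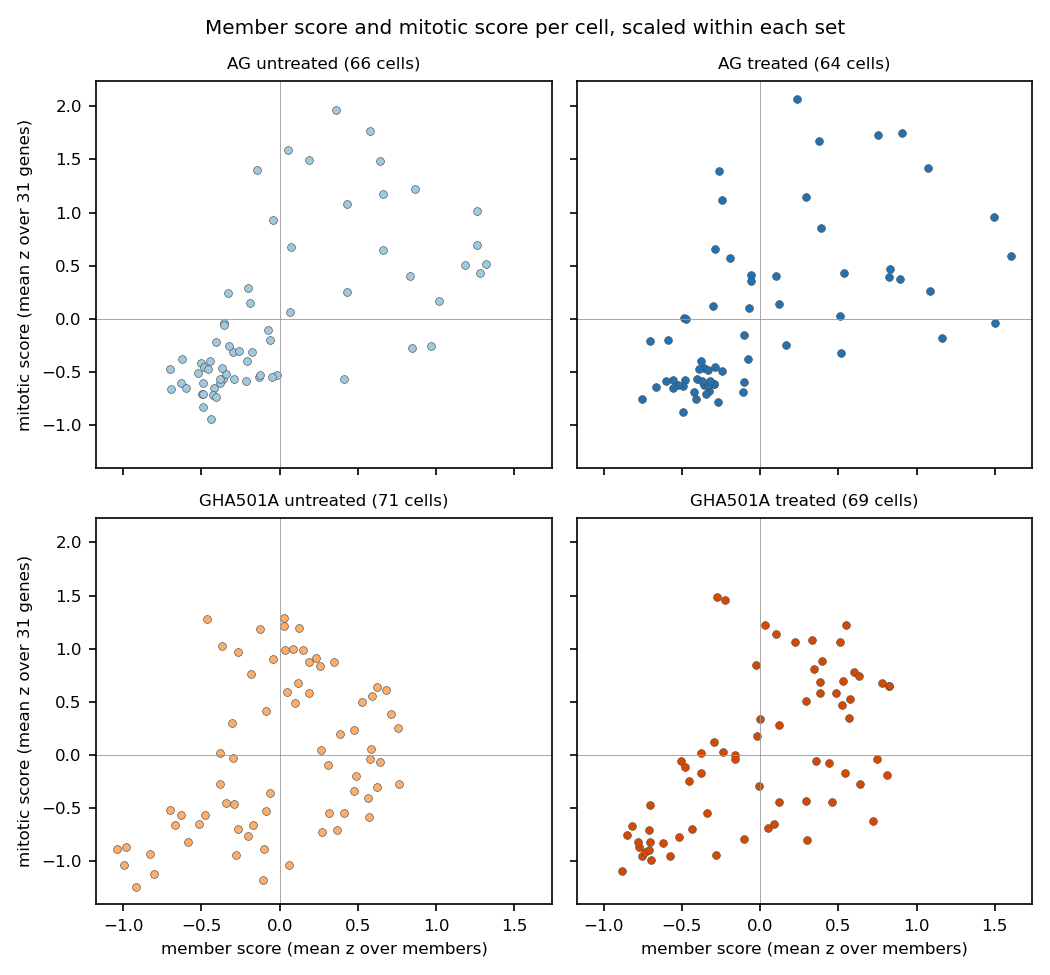
Each point is a cell, with the member score (mean z-score of the members, no unit) on the horizontal axis and the mitotic score (mean z-score of 31 genes, no unit) on the vertical axis, each scaled within its set. The AG panels show a dense group at low scores on both axes with a tail to high scores, and the GHA501A panels show a broader cloud, with r of 0.61, 0.57, 0.37 and 0.58.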

How the data were processed

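Single cells of co-cultures were measured by C1 capture and SMART-Seq v4 sequencing. The values deposited are TPM: the authors used Cutadapt, Tophat on GRCm38 without multi-mapped reads and featureCounts before conversion (versions not given in the sources used here). TPM sum to 1000000 in each cell, so the depth of each cell is unknown here and the error of low values cannot be given. Of 294 columns, 278 matched a label, 16 matched none and were not used, and 8 with a name prefix against their treatment label entered only as alternatives. Doublets had been excluded by imaging, per the labels.

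Set means were compared as log2(mean TPM + 1), a scale that understates changes of low genes, with limma 3.58.1 in R 4.3.3 (two-sided, terms for treatment and series, Benjamini-Hochberg), with the filter given above. Other steps used Python 3.11.15, pandas 2.3.3 and scipy 1.17.1, and were tested on simulated data. Members and lists were chosen with earlier results of these data known. Named genes were all members, the 10 genes most (1 of them not reported here) and 5 least like the member score, and up to 4 called genes of each list. The alternatives were a pseudocount of 0.1, means of log2 values, other filters, the 8 cells included, Krt14-positive cells, each set left out, fits without a term, Spearman and partial correlations, and detection at TPM over 0. Leaving out members and list genes near 0 in AG, and members whose promoter windows lie inside the gene, was added after seeing the data.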

Additional observations from a re-analysis of the deposited data

How the results depend on the processing

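For the series difference, the members called numbered 31 with the mean of log2(TPM + 1) over cells, and 3 to 9 when a set was left out (3 without either AG set, 7 and 9 without a GHA501A set). Genes called overall numbered 5539 with the mean of log2(TPM + 1), 1634 in Krt14-positive cells, and 1023 to 2229 without a set. The median log2 difference of the members was 1.24 with the mean of log2(TPM + 1), 1.06 within treated sets, 0.95 without Rpa1, Lig1 and Ccne2, and 0.92 to 1.09 without a set. Without a set Pcna ranged from -0.34 to 0.15 (above 0 without AG untreated and, at 0.03, without GHA501A untreated) and E2f1 from -0.12 (without AG untreated) to 0.33, and E2f1 turned to -0.76 with the mean of log2(TPM + 1) and E2f4 to 0.060 in Krt14-positive cells. For treatment, series was the replicate block. With no replicate block 0 genes were called also, and the members' median stayed at -0.04. That median was -0.071 with a pseudocount of 0.1, -0.12 with the mean of log2(TPM + 1), -0.12 and -0.0014 with the 8 cells included by label and by prefix, 0.041 in Krt14-positive cells, and -0.60 to 0.51 without a set, where treatment is in part a comparison of series. The other alternatives kept the 67 remaining summary values within their limits, and the median pairwise r was 0.24 to 0.32. Of the 10 genes most like the member score, 8 were shared with Spearman correlation. Of 312 values for single genes under the alternatives, 5 changed sign, 27 lost and 6 gained a call and 1 moved past its spread, and the cause was not tested. Unknown depth per cell limits any statement on a low value.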
